A study of Arabidopsis thaliana with 6 samples.

Results

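Transcripts of 10 jasmonate genes were followed in *Arabidopsis thaliana*: *LOX2* (AT3G45140), *LOX3* (AT1G17420), *LOX4* (AT1G72520), *AOS* (AT5G42650), *AOC1* (AT3G25760), *AOC2* (AT3G25770) and *OPR3* (AT2G06050), which encode enzymes of jasmonate synthesis, the vegetative storage protein genes *VSP1* (AT5G24780) and *VSP2* (AT5G24770), and the arginase gene *ARGAH2* (AT4G08870). They were taken by locus from a count table of 30865 genes, and all 10 were found there and passed the filter on low counts. The genes were chosen by pathway with their counts and fold changes between mutant and wild type already known. Differences of these genes between the groups are therefore described without a test. Their SEs and 95% intervals describe the fit and are not read as tests of a difference. The study compared 3 libraries of the nup50c mutant with 3 of the wild-type accession Col-0, each from about 50 mg of whole seedlings aged 9 days, grown on medium with 1% sucrose and not treated. The mutation affects a gene for NUP50, a protein of the nuclear pore. No allele is given in the labels, and the number in each mutant title was read as a replicate although it could also name an allele.

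Jasmonate is a lipid hormone of wounding, defence against insects and flower fertility. Lipoxygenases oxidise linolenic acid in the plastid, allene oxide synthase and allene oxide cyclases close its ring, a reductase in the peroxisome reduces it, and shortening of the side chain gives jasmonic acid. The conjugate with isoleucine binds the receptor COI1, which leads to breakdown of JAZ repressors and frees MYC2 and related factors. These raise transcription of the synthesis genes themselves, of *VSP1* and *VSP2*, which encode acid phosphatases of leaf storage and defence, and of *ARGAH2*, whose product splits arginine into ornithine and urea.

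The libraries held 33273007 to 36984121 counts in nup50c and 35116694 to 39574236 in Col-0. *NUP50C*, taken as AT4G11790, which overlaps a gene on the other strand, had 469, 376 and 336 counts in nup50c and 1255, 1100 and 1142 in Col-0 (log2 fold change -1.49, edgeR quasi-likelihood adjusted p = 0.00293). On the second principal component, which held 23.8% of the variance, nup50c replicate 3 lay at -83.6 and the other libraries between -4.89 and 31.5. Markers of root (8 of 8) and leaf (6 of 6) were counted, while 4 of 6 flower markers and 3 of 4 seed markers were at 0 counts in all libraries. These zeros are of the counts only: the flower marker *PI* had a deposited FPKM of 0.40 in nup50c replicate 1 and 0.34 in Col-0 replicate 3. Some of these markers differed between the groups. The root gene *FRO2* was lower in nup50c (log2 fold change -1.89, edgeR adjusted p = 0.00208). Of the leaf genes *CAB3* was lower (-0.81, edgeR adjusted p = 0.00646) and *GLDP1* higher (0.48, edgeR adjusted p = 0.00926). The other 7 root markers and 4 leaf markers did not pass. Among the root markers 5 had a log2 fold change above 0 and 3 below, with a median of 0.02. Among the leaf markers 1 lay above 0 and 5 below, with a median of -0.08. The summed level of the root list was 2608 to 3227 CPM in nup50c and 2334 to 2597 CPM in Col-0. Most of that sum was *PYK10*, at 2362 to 2948 CPM in nup50c and 2074 to 2303 CPM in Col-0. The mean deviation of the 8 root genes in log2 CPM went the other way. It was -0.106, -0.102 and -0.063 in nup50c replicates 1 to 3 and 0.107, 0.00945 and 0.155 in Col-0. That mean leaned on *FRO2*, at -1.89. The other root genes with a log2 fold change below 0 were *MYB36* (-0.14) and *CASP1* (-0.00198). The summed level of the leaf list was 22380 to 24138 CPM in nup50c and 24948 to 26244 CPM in Col-0. Within that sum *CAB3* averaged 2129 CPM in nup50c and 3744 CPM in Col-0. *GLDP1* went the other way, at 1833 and 1315 CPM. The part of these markers in the differences given below was not tested. In whole seedlings, fewer cells of a type and less RNA per cell cannot be told apart.

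The sequences before 6 of the genes are shown, for reasons that differ by gene. *LOX3* and *LOX4* were both high in a single mutant library, and *AOS* varied least in wild type. *ARGAH2* was the member far lower in the mutant, and *VSP1* and *VSP2* are neighbouring copies. Each is the 300 bases before the annotated gene start, read 5′ to 3′ on the gene's strand from RefSeq's TAIR10.1. They lie at chr1:5977023-5977322 (*LOX3*, plus strand), chr1:27308213-27308512 (*LOX4*, plus), chr5:17099596-17099895 (*AOS*, minus), chr4:5648869-5649168 (*ARGAH2*, minus), chr5:8509202-8509501 (*VSP1*, minus) and chr5:8502225-8502524 (*VSP2*, minus). In the first 4, capitals mark the G-box CACGTG and its variant CACATG, letters that MYC2 can bind, and the evening element AAAATATCT of clock-controlled genes, each searched on both strands. In the VSP pair, capitals mark the longest run of bases that both sequences share.
LOX3: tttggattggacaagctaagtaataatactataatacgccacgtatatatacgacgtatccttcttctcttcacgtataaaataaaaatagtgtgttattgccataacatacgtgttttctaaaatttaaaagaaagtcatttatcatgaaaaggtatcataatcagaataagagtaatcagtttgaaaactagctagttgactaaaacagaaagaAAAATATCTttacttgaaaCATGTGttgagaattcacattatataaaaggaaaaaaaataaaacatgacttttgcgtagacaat
LOX4: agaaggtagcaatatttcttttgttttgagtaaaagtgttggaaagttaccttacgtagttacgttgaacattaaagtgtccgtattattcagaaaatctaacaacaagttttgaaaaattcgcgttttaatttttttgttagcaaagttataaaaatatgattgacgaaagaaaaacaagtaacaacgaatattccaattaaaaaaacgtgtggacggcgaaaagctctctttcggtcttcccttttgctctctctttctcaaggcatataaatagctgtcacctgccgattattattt
AOS: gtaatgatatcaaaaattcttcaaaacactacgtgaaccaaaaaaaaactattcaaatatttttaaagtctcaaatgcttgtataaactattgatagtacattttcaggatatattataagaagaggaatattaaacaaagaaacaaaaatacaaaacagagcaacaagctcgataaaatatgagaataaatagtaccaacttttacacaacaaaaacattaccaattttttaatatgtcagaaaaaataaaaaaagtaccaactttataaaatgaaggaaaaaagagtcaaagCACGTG
ARGAH2: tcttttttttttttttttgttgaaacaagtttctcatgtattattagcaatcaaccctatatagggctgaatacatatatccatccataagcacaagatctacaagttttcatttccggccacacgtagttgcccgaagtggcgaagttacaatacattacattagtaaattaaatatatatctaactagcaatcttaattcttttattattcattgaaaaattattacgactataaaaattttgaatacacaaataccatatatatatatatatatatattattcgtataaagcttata
VSP1: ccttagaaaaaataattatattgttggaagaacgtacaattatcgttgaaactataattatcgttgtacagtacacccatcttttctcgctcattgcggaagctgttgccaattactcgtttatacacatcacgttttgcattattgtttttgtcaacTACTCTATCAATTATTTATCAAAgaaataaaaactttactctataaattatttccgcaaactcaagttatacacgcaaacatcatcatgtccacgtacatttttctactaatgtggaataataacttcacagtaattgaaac
VSP2: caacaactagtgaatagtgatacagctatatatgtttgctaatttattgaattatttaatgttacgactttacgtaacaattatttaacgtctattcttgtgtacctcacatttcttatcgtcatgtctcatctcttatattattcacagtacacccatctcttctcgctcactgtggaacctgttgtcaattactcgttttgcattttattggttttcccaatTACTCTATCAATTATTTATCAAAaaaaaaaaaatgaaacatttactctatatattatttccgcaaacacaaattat

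The G-box stood before 1 of the 10 members, *AOS*, where it covers the last 6 bases before the start, and before 7.09% of 27443 protein-coding genes. The variant CACATG stood before *LOX2* and *LOX3*, and before 13.1% of those genes. The evening element stood before *LOX3*, 84 to 76 bases from the start, and before 2.79% of them. None of these letters was in the window of *LOX4*, *AOC1*, *AOC2*, *OPR3*, *VSP1*, *VSP2* or *ARGAH2*. The run shared by *VSP1* and *VSP2* was 23 bases long, and the longest run shared by *LOX3* and *LOX4* was 10 bases.

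Several members have close relatives, which bears on how reads were assigned. *VSP2* (chromosome 5, 8500468 to 8502224) and *VSP1* (8507590 to 8509201) lie 5365 bases apart on the minus strand and share 89.5% of their coding bases. *AOC1* (chromosome 3, 9403779 to 9405338) and *AOC2* (9406669 to 9408071) lie 1330 bases apart on the plus strand and share 90.3%, with *AOC3* next in the row. *LOX3* (chromosome 1, 5977323 to 5981521) and *LOX4* (27308513 to 27312756) share 80.7%, and *ARGAH2* (chromosome 4, 5646395 to 5648868) shares 87.4% with *ARGAH1*. The longest exact run common to the transcripts of 2 such relatives was 73 bases, between *AOC1* and *AOC3*, followed by 59 bases between *ARGAH2* and *ARGAH1*. No stretch of 100 bases was common to any pair compared, but how reads matching several genes were counted is not given. *LOX2* (chromosome 3, 16525245 to 16529352), *AOS* (chromosome 5, 17097564 to 17099595) and *OPR3* (chromosome 2, 2359114 to 2362375) have no such close copy: *LOX2* shares 59.4% with *LOX3*, and *OPR3* 63.2% with *OPR2*. No member overlaps another annotated gene on either strand.

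Of 21158 genes tested, 483 (2.28%) had a Benjamini-Hochberg adjusted p under 0.05 in the edgeR quasi-likelihood test, 1.12% higher and 1.17% lower in nup50c. Of the 10 members 1 was past that threshold, *ARGAH2*, and since the members were chosen with this comparison known, nothing is read from the count. The groups did not overlap in 4 members, with nup50c above Col-0 in *LOX3*, *AOS* and *AOC2* and below it in *ARGAH2*. The same was true of 23.4% of all genes, 11.7% with nup50c higher and 11.6% with nup50c lower. Among the 7 synthesis members 6 had a log2 fold change above 0 and the median was 0.54. Over all genes the median was -0.00284, and 49.5% lay above 0. Nothing is read from this contrast either, since the members were chosen with their fold changes known. It also leans on nup50c replicate 3, without which *LOX3* was at 0.48 and *LOX4* at -0.13.

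*LOX2* encodes the plastid lipoxygenase that makes most of the jasmonate in wounded leaves. It stood at 235, 217 and 227 CPM (counts scaled to library size, TMM-normalized) in nup50c replicates 1 to 3 and at 229, 230 and 238 CPM in Col-0. The groups overlapped, and the levels within each group differed by at most 1.08-fold in nup50c and 1.04-fold in Col-0. The log2 fold change was -0.04, with a 95% interval from -0.16 to 0.09.

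*LOX3* and *LOX4* encode related plastid lipoxygenases needed for fertile flowers, and both are early wound-response genes. *LOX3* stood at 11.005, 14.7 and 42.2 CPM in nup50c and at 8.44, 9.85 and 9.37 CPM in Col-0. All 3 nup50c libraries were above all Col-0 libraries, narrowly in replicate 1 and by far in replicate 3. *LOX4* stood at 7.78, 13.98 and 65.2 CPM in nup50c and at 10.8, 15.2 and 9.80 CPM in Col-0. Replicate 1 of nup50c was the lowest of all 6 libraries, replicate 2 was within the Col-0 range, and replicate 3 was the highest. The log2 fold changes were 1.29 (95% interval -0.13 to 2.72) for *LOX3* and 1.28 (-1.13 to 3.69) for *LOX4*. Without nup50c replicate 3 they were 0.48 and -0.13.

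Few genes stood so far above the other libraries in nup50c replicate 3. It was 2.86 times the highest other library in *LOX3* and 4.31 times in *LOX4*. A ratio above 2 there, at 1 CPM or more, was found for 120 of 21158 genes (0.567%), and a ratio above 4 for 8 genes. In each other library 6 to 40 genes were more than 2 times above all the rest. These counts were chosen after the values of *LOX3* and *LOX4* were seen. A list of 10 early wound and touch genes moved with them: its summed level ran from 525 to 1774 CPM in nup50c, highest in replicate 3, and from 630 to 947 CPM in Col-0. All 10 of its genes had a log2 fold change above 0 and 0 of 10 passed the edgeR test, with a lowest adjusted p of 0.0816. These signs lean on nup50c replicate 3. The mean deviation of the list in log2 CPM was -0.523, 0.125 and 1.31 in nup50c replicates 1 to 3. In Col-0 it was -0.599, 0.0349 and -0.351. *TCH3*, *ZAT12*, *MYB51* and *WRKY33* were above all Col-0 libraries only in nup50c replicate 3. In 3 of the 10 the groups did not overlap, with nup50c higher, against 11.7% of all genes. The part of this list in the levels of *LOX3* and *LOX4*, and of the other members that were highest in nup50c replicate 3, was not tested.

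*AOS* encodes allene oxide synthase, the first enzyme committed to jasmonate. It stood at 84.0, 104 and 121 CPM in nup50c and at 72.3, 72.5 and 73.1 CPM in Col-0. All nup50c libraries were above all Col-0 libraries, which agreed within 1.01-fold, while the nup50c libraries spread over 1.44-fold. The log2 fold change was 0.51, with an SE of 0.12.

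*AOC2* and *AOC1* encode allene oxide cyclases, which set the stereochemistry of the ring. *AOC2* stood at 102, 99.9 and 121 CPM in nup50c and at 63.2, 87.3 and 71.6 CPM in Col-0, without overlap (log2 fold change 0.54, SE 0.13). *AOC1* stood at 13.97, 23.5 and 21.7 CPM in nup50c and at 17.0, 17.1 and 17.7 CPM in Col-0 (log2 fold change 0.19, SE 0.18). In *AOC1*, nup50c replicate 1 was below every Col-0 library and the other nup50c libraries above them, so the groups overlapped.

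*OPR3* encodes the peroxisomal reductase of the pathway. It stood at 29.4, 50.6 and 66.1 CPM in nup50c and at 27.7, 36.3 and 30.7 CPM in Col-0. Replicate 1 of nup50c lay within the Col-0 range and the other nup50c libraries above it. The log2 fold change was 0.62, with a 95% interval from -0.14 to 1.39, and 0.34 without nup50c replicate 3 (or 0.89 without nup50c replicate 1).

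**Figure D1:**
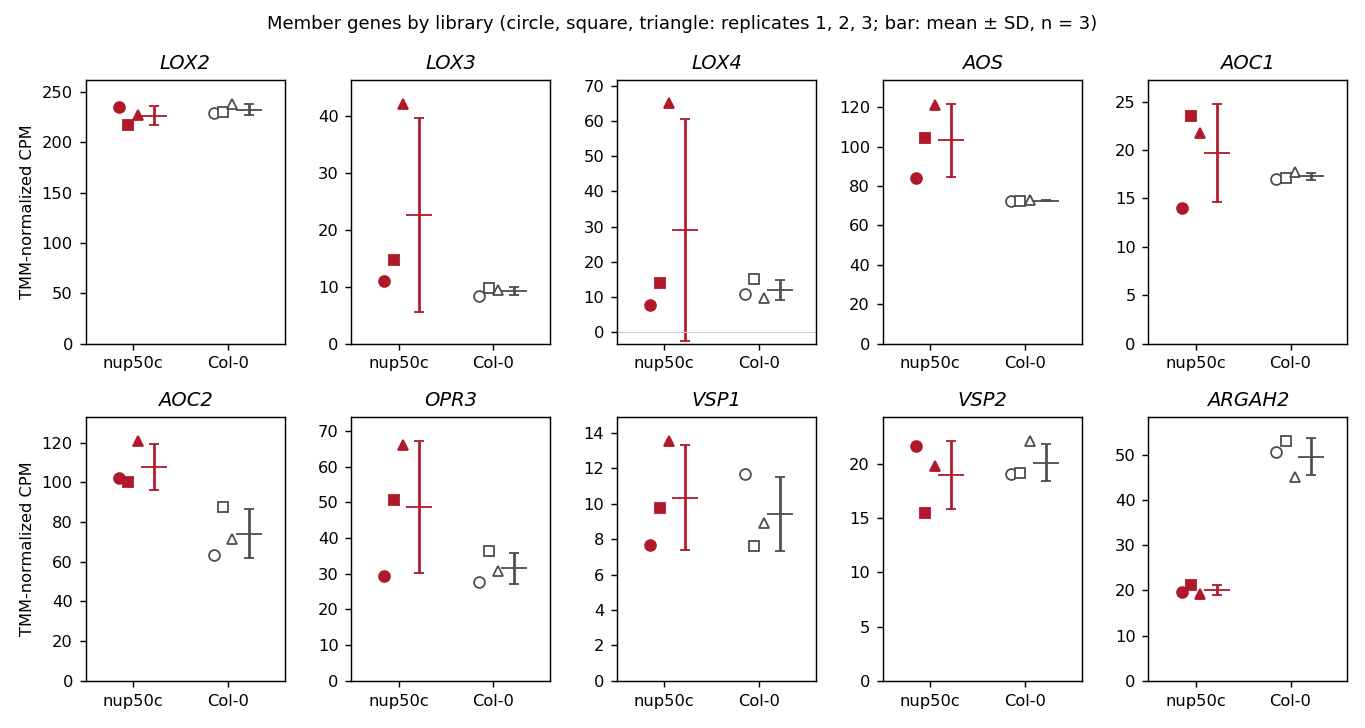
TMM-normalized CPM (vertical axis, linear) of each of the 10 genes in the nup50c libraries (filled) and the Col-0 libraries (open); circles, squares and triangles are replicates 1, 2 and 3, and bars are the mean ± SD of 3 libraries. *LOX3* and *LOX4* are high in nup50c replicate 3 (42.2 and 65.2 CPM), *LOX2* is at 217 to 238 CPM throughout, and *ARGAH2* is at 19.1 to 21.3 CPM in nup50c, below all Col-0 libraries; the SD bar of *LOX4* in nup50c reaches below 0.

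The storage protein genes are classical reporters of jasmonate response. *VSP1* stood at 7.69, 9.74 and 13.5 CPM in nup50c and at 11.7, 7.59 and 8.94 CPM in Col-0. *VSP2* stood at 21.6, 15.5 and 19.8 CPM in nup50c and at 19.1, 19.2 and 22.1 CPM in Col-0. In both genes the groups overlapped, and the replicates highest in the one were not highest in the other. The 95% intervals of the log2 fold changes ran from -0.40 to 0.67 for *VSP1* and from -0.41 to 0.23 for *VSP2*.

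*ARGAH2* differed from the other members. It stood at 19.7, 21.3 and 19.1 CPM in nup50c and at 50.5, 53.0 and 45.1 CPM in Col-0. The nup50c libraries agreed within 1.11-fold, replicate 3 included, and lay far below all Col-0 libraries. The level was 2.47-fold lower in nup50c, with a log2 fold change of -1.30 (95% interval -1.52 to -1.09). By size this was number 63 among the 247 genes called lower. Leaving out each library in turn gave log2 fold changes from -1.37 to -1.25. A list of 8 genes of the salicylic acid response was also lower in sum, at 123 to 300 CPM in nup50c against 249 to 754 CPM in Col-0. Much of that sum was *PR1*, at 18.7, 0 and 70.2 CPM in nup50c and 317, 302 and 45.3 CPM in Col-0. Its 0 in nup50c replicate 2 can be a failed estimate. The list overlapped between the groups and 0 of 8 of its genes passed the edgeR test (lowest adjusted p = 0.0686). Its part in the level of *ARGAH2* was not tested.

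**Figure D2:**
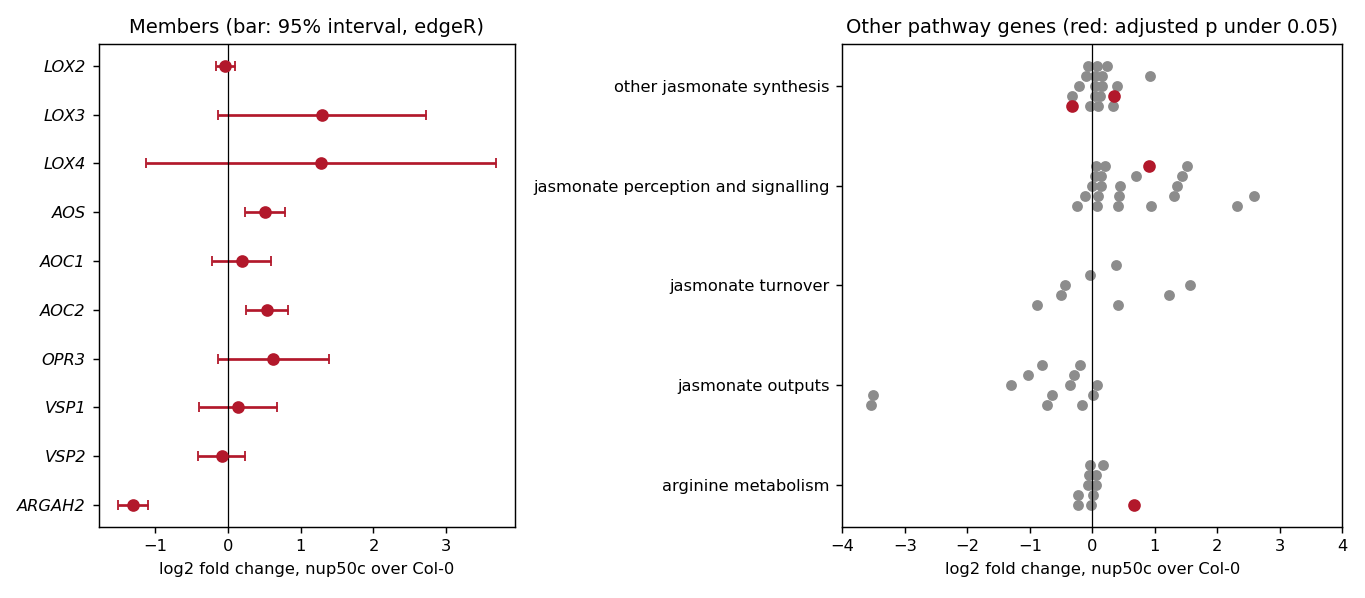
Left, log2 fold change of nup50c over Col-0 (horizontal axis) for each of the 10 genes with its 95% interval from edgeR; right, the same value for the tested genes of 5 other lists, 1 point a gene, red where the adjusted p was under 0.05. *ARGAH2* lies at -1.30 and *LOX2* at -0.04, the interval of *LOX4* runs from -1.13 to 3.69, and *TPS04*, listed at 0 in all nup50c libraries, is left off the right panel.

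Per length, in the deposited FPKM (fragments scaled to gene length and library size), the order of levels was led by *AOC2* (75.8 ± 6.93), *LOX2* (69.1 ± 2.62), *AOS* (46.5 ± 7.95) and *OPR3* (29.0 ± 10.6) in nup50c (SD, n = 3). *AOC1* (15.1), *VSP2* (12.7), *ARGAH2* (12.6), *LOX4* (8.63), *VSP1* (7.15) and *LOX3* (6.67) followed there. In nup50c the ranges of neighbours in this order overlapped, except between *LOX2* and *AOS*. In Col-0 the order was *LOX2* (70.1 ± 1.14), *AOC2* (51.6 ± 8.76), *AOS* (32.4 ± 0.111), *ARGAH2* (30.7 ± 2.72), *OPR3* (18.4 ± 2.68), *AOC1* (13.1), *VSP2* (12.96), *VSP1* (6.45), *LOX4* (3.54) and *LOX3* (2.70). The ranges in Col-0 overlapped between *AOS* and *ARGAH2*, between *AOC1* and *VSP2*, and between *LOX4* and *LOX3*. *ARGAH2* was thus number 7 in nup50c and number 4 in Col-0.

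Each member's share of its family was also read in FPKM. *ARGAH2* supplied 56.1% ± 3.25 of the summed FPKM of the arginase genes *ARGAH2* and *ARGAH1* in nup50c and 75.5% ± 0.310 in Col-0 (SD, n = 3 each). The arginase sum was 22.5 ± 1.86 FPKM in nup50c and 40.6 ± 3.67 in Col-0. *ARGAH1* itself was not called (log2 fold change -0.03 ± 0.14 SE; adjusted p = 0.960 by edgeR). Its sign changed without nup50c replicate 3, Col-0 replicate 1 or Col-0 replicate 2. Among the allene oxide cyclases, *AOC2* supplied 63.1% ± 3.43 in nup50c and 56.9% ± 4.59 in Col-0, of a sum of 120.5 ± 13.9 FPKM in nup50c and 90.3 ± 8.29 in Col-0. Neither *AOC3* (log2 fold change 0.40, edgeR adjusted p = 0.641; -0.04 without nup50c replicate 3) nor *AOC4* (0.09, adjusted p = 0.694) was called. Among the plastid lipoxygenases *LOX2*, *LOX3*, *LOX4* and *LOX6*, *LOX2* supplied 60.5% to 82.3% in the nup50c libraries and 80.0% to 82.0% in Col-0. The lowest share was that of nup50c replicate 3, where *LOX4* supplied 17.1% and *LOX3* 10.9%. *LOX6* (0.15, edgeR adjusted p = 0.578), *LOX1* (0.13, 0.663; overlapped by a gene on the other strand) and *LOX5* (0.05, 0.919; below 0 without nup50c replicate 3 or Col-0 replicate 2) were not called. The reductase genes *OPR1* (log2 fold change -0.33, edgeR adjusted p = 0.251) and *OPR2* (-0.21, 0.433), relatives of *OPR3* outside the main pathway, overlap each other on the plus strand, so that their counts are uncertain. They were not called either, and *OPR1* was called without nup50c replicate 3 (-0.48, adjusted p = 0.0293).

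**Figure D3:**
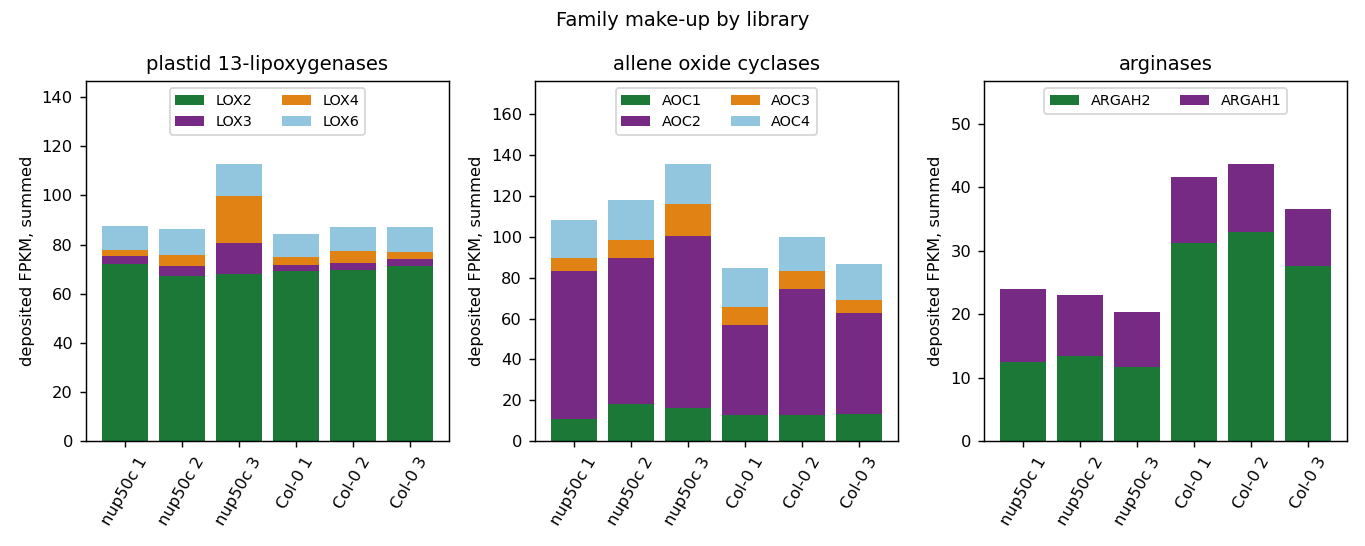
Deposited FPKM (vertical axis), stacked by gene, for the plastid lipoxygenases of jasmonate synthesis, the allene oxide cyclases and the arginases in each of the 6 libraries. *LOX2* is at 67.1 to 72.1 FPKM in all bars while *LOX3* and *LOX4* add height in nup50c replicate 3, and the *ARGAH2* part of the arginase bars is 11.8 to 13.5 FPKM in nup50c and 27.7 to 33.01 FPKM in Col-0.

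The members varied together in part. Over the 6 libraries all 15 pairs among *LOX3*, *LOX4*, *AOS*, *AOC1*, *AOC2* and *OPR3* had a Pearson correlation of log2 CPM above 0, from 0.34 to 0.93. *LOX2* correlated negatively with each of these, from -0.78 to -0.35, and at 0.97 with *VSP2*, although *LOX2* itself hardly varied. After the group means were removed, *LOX3* and *LOX4* correlated at 0.98, and *LOX2* and *VSP2* also at 0.98. Others were weaker then: *AOS* and *AOC2* correlated at 0.39, against 0.84 before, *AOC1* and *AOC2* at 0.14, against 0.34, *LOX2* and *LOX3* at -0.12, against -0.37, and *LOX2* and *AOC2* at 0.07, against -0.35. *VSP1* and *VSP2* correlated at -0.21. These are descriptions over 6 libraries that share their groups and, for the highest values of *LOX3* and *LOX4*, nup50c replicate 3. Among the members, *LOX3*, *LOX4*, *AOS*, *AOC2*, *OPR3* and *VSP1* were highest in that library. How many of all genes were highest there was not counted, so nothing is read from this.

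**Figure D4:**
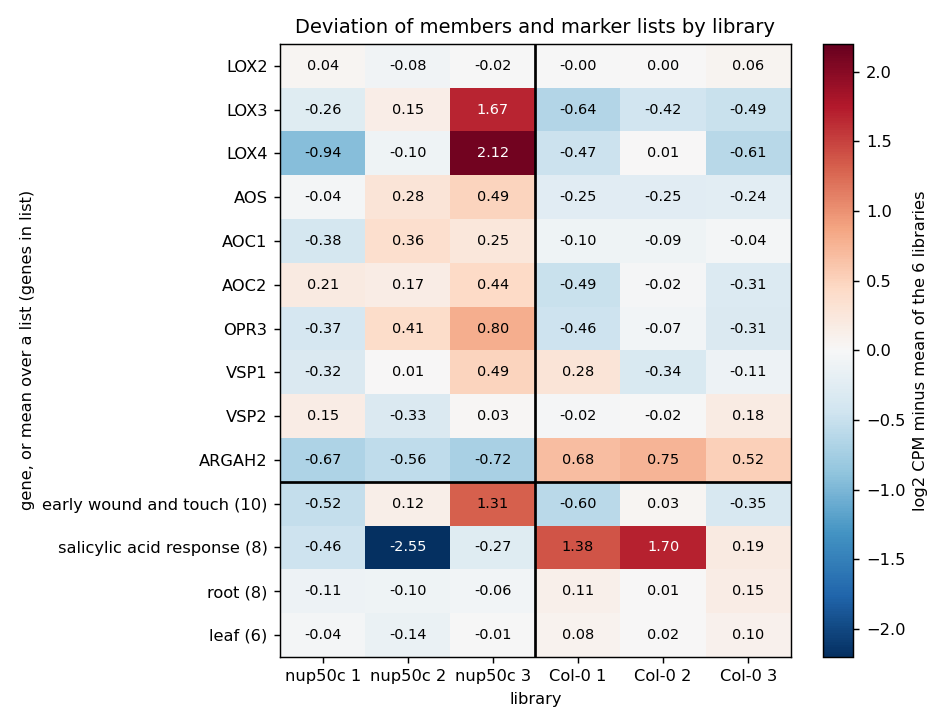
Log2 CPM minus the mean of the 6 libraries (colour and printed value) for each of the 10 genes and, under the line, the mean over the genes of 4 marker lists, with nup50c libraries on the left. *LOX3* (1.67) and *LOX4* (2.12) deviate most in nup50c replicate 3, as does the early wound and touch list (1.31), while *ARGAH2* is below 0 in all nup50c libraries and above 0 in all Col-0 libraries. The value of the salicylic acid list in nup50c replicate 2 (-2.55) includes the 0 of *PR1* there.

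The genes whose pattern over the 6 libraries was most like the mean standardized profile of the 7 synthesis members were AT4G06534, for an uncharacterized protein (r = 0.999), *ERF13*, for an ethylene response factor (0.996), *JAZ1*, for a JAZ repressor (0.993), AT5G56140, for a KH domain RNA-binding protein (0.992), and *ERD15*, for a dehydration-induced protein (0.992). With only 6 libraries, 418 of 19396 genes compared had r over 0.9. For the mean of *VSP1* and *VSP2*, which were themselves unlike each other, the nearest were AT5G09390 (0.992), AT1G80000 (0.992), *TSA1* at AT1G52410 (0.986), AT5G06770 (0.984) and AT1G33770 (0.976), and 88 genes had r over 0.9.

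The other genes of the pathways were listed by role in 5 lists, of which 74 of 81 genes were tested. The edgeR test called 3 of them higher and 2 lower, against 2.28% of all genes called. Upstream of the lipoxygenases, *FAD7*, the plastid desaturase that makes linolenic acid, rose: it averaged 284 ± 5.34 CPM in nup50c and 223 ± 9.77 in Col-0 (SD, n = 3 each; log2 fold change 0.35, SE 0.06, edgeR adjusted p = 0.0183). Downstream of *OPR3*, *ACX1*, the acyl-CoA oxidase that begins shortening of the side chain in the peroxisome, fell to 102 ± 3.94 CPM in nup50c, against 127 ± 4.32 in Col-0 (log2 fold change -0.33, SE 0.06, edgeR adjusted p = 0.0321). These were the 1 higher and 1 lower call among 19 synthesis genes tested outside the members, whose median log2 fold change was 0.07. *DAD1* and *DGL*, lipase genes of the pathway, were at 0 in all libraries. The call of *FAD7* was lost without nup50c replicate 1, nup50c replicate 2, Col-0 replicate 1 or Col-0 replicate 2 (highest adjusted p = 0.103), and that of *ACX1* on leaving out any 1 library other than nup50c replicate 3 (highest 0.136). The call of *ACX1* was also lost in all 3 fits to FPKM (limma adjusted p = 0.0516 to 0.0539).

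In perception and signalling, 19 of 22 tested genes had a log2 fold change above 0, with a median of 0.42, and 1 passed. The mutant libraries were not alike: the mean deviation of the list in log2 CPM was -0.301, 0.714 and 0.60 in nup50c replicates 1 to 3 and -0.377, -0.209 and -0.428 in Col-0, so that nup50c replicate 1 lay within the Col-0 range. *JAM1* (AT2G46510, *AIB* in the annotation), a bHLH factor that competes with MYC2 and represses jasmonate responses, rose to 23.7, 36.4 and 32.6 CPM in nup50c, against 15.4, 15.8 and 18.2 CPM in Col-0 (log2 fold change 0.91, SE 0.16, edgeR adjusted p = 0.0244). That call was lost on leaving out any 1 library other than nup50c replicate 1 (highest adjusted p = 0.152). *MYC2*, named after its values were seen, stood at 54.5, 95.8 and 115 CPM in nup50c and at 35.0, 40.03 and 28.7 CPM in Col-0, without overlap, and did not pass (log2 fold change 1.35, SE 0.31, edgeR adjusted p = 0.117). Of the genes named from this list, *MYC2*, *COI1* and *JAZ10* each overlap a gene on the other strand. The receptor gene *COI1* had a log2 fold change of -0.01 (edgeR adjusted p = 0.984). Of 13 JAZ genes 12 were tested, all with a log2 fold change above 0 (0.08 to 2.58) and 0 passing, with a lowest adjusted p of 0.119. Here too nup50c replicate 1 stood apart from the other mutant libraries in several genes: *JAZ10* was at 1.07, 7.80 and 8.22 CPM in nup50c and at 1.36, 2.87 and 2.11 CPM in Col-0, and *JAZ7* at 0.929, 7.16 and 6.23 CPM in nup50c and at 0.967, 1.16 and 0.762 CPM in Col-0. The highest value, 2.58, belonged to *JAZ8*, which had only 0, 51 and 27 counts in nup50c and 0, 13 and 0 in Col-0. These JAZ genes were named after their values were seen.

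In jasmonate turnover 0 of 8 tested genes passed the edgeR test, with 4 above and 4 below 0. The smallest p-values belonged to *ST2A*, a sulfotransferase of hydroxyjasmonate (log2 fold change -0.89, edgeR adjusted p = 0.102), and *IAR3*, an amidohydrolase that cleaves jasmonate conjugates (-0.44, adjusted p = 0.294). Among the jasmonate outputs outside the members, 12 of 14 tested genes had a log2 fold change below 0, with a median of -0.68, and 1 passed. This was *TPS04*, a terpene synthase for a volatile of wounded leaves, listed at 0 counts in all nup50c libraries and at 141, 192 and 203 counts in Col-0 (edgeR adjusted p = 0.00191). A 0 in these tables can be a failed estimate, so no fold is given. Zeros also entered the values below 0 of *NATA1* (0 counts in nup50c replicates 1 and 2) and *ANAC019* (0 in nup50c replicate 1). *PDF1.2B* and *PDF1.2C*, below 0 as well, stood above all nup50c libraries only in Col-0 replicate 3. The mean deviation of the list in log2 CPM was -1.23, -0.834 and -0.043 in nup50c replicates 1 to 3. In Col-0 it was 0.475, 0.685 and 0.947. *TAT3*, a tyrosine aminotransferase gene named after its values were seen, stood at 1.22, 2.48 and 9.76 CPM in nup50c and at 45.9, 70.0 and 36.0 CPM in Col-0, without overlap, and did not pass (log2 fold change -3.51, SE 0.86, edgeR adjusted p = 0.155).

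Around arginase, 1 of 11 tested genes of arginine metabolism passed. *ERD5*, proline dehydrogenase, on the route by which ornithine and proline are broken down, rose to 364, 441 and 433 CPM in nup50c, against 229, 248 and 298 CPM in Col-0 (log2 fold change 0.67, SE 0.11, edgeR adjusted p = 0.0255). Its call was lost without nup50c replicate 2, nup50c replicate 3, Col-0 replicate 1 or Col-0 replicate 2 (highest adjusted p = 0.117). The arginine decarboxylase genes *ADC1* (log2 fold change -0.23, edgeR adjusted p = 0.176) and *ADC2* (0.06, 0.761), which compete with arginase for arginine, and *DELTA-OAT*, ornithine aminotransferase (-0.23, 0.203), did not pass. The median of the list was -0.03.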

How the data were processed

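RNA of whole seedlings was sequenced in 6 libraries, prepared with a strand-specific method per the labels' protocols. The authors deposited whole-number counts for 30865 genes and FPKM for 32834 table rows. HISAT2 2.0.4, HTSeq 0.6.1p1 and build TAIR10 appear in the submitters' processing notes without a stated role. How reads were assigned and whether strand was used are details not given in these sources. Groups came from sample titles. Nothing tells whether replicates were grown apart, so the p-values reflect variation among these 6 libraries, possibly technical. Positions and sequences are from RefSeq's TAIR10.1, since the deposited tables hold no coordinates.

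The count test used edgeR 4.0.16 in R 4.3.3 (filterByExpr with at least 10 counts and 15 in total, TMM, robust quasi-likelihood F test, no covariate, Benjamini-Hochberg adjustment over 21158 genes). CPM are TMM-normalized, log2 CPM used a prior count of 2, and SEs were derived from the moderated F. Of 185190 counts 57420 were 0 and 40 were 1, so a 0 was treated as possibly a failed estimate; no member had one. Pairs of libraries within a group differed beyond counting noise (chi-square per gene 14.6 to 30.2). The fit was tested on simulated data, where most changed genes were recovered but the share of false calls exceeded the nominal rate, so calls near the threshold are less secure. Alternatives used DESeq2 1.42.0, limma 3.58.1 on log2(FPKM + 1) and log2(FPKM + 0.1), other filters and scaling, a replicate block, and each library left out. Members and lists were chosen with earlier results of these data known. Named genes were the members, the mutated gene, paralogs of members, called genes of each list or else its 2 smallest p, and the 5 most alike by correlation (mean of at least 1 CPM). Added after their values were seen were *MYC2*, *TAT3*, *COI1*, *DAD1*, *DGL*, *ADC1*, *ADC2*, *DELTA-OAT*, *PYK10*, *PI*, *NATA1*, *ANAC019*, *PDF1.2B* and *PDF1.2C*. The same holds for *MYB36*, *CASP1*, *TCH3*, *ZAT12*, *MYB51*, *WRKY33* and *PR1*.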

Additional observations from a re-analysis of the deposited data

How the results depend on the processing

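Over all genes 483 were called; 1257 were called with DESeq2, 772 with at least 10 counts in all libraries, 31 with the replicate block, and 108 to 438 when 1 library was left out (265 without nup50c replicate 1, 133 without nup50c replicate 2, 108 without Col-0 replicate 1 and 166 without Col-0 replicate 2). The number of members past the threshold, from which nothing is read since they were chosen with this comparison known, was 1, and 3 with DESeq2 (*AOS* and *AOC2* added), 2 with at least 10 counts in all libraries (*AOS* added), 2 in each of the 3 FPKM settings (*AOC2* added) and 1 to 3 when 1 library was left out, where *AOS* and *OPR3* were added without nup50c replicate 1 and *AOC2* without Col-0 replicate 2. Of the other pathway genes 5 were called, 11 with DESeq2, 0 with the replicate block and 1 to 8 when 1 library was left out (8 without nup50c replicate 1, 3 without Col-0 replicate 3, and 1 without nup50c replicate 2, Col-0 replicate 1 or Col-0 replicate 2). The cause of these differences was not tested. When 1 library was left out, log2 fold changes changed sign for *LOX4* (-0.13 to 1.73), *VSP1* (-0.11 to 0.32), *VSP2* (-0.191 to 0.0385), *AOC3* (-0.0361 to 0.642), *LOX5* (-0.0636 to 0.141) and *ARGAH1* (-0.135 to 0.0552). Libraries of the same number did not deviate together (correlations of -0.03, -0.12 and -0.10), so the block pairs samples by number only. With 3 libraries a group, an interval as wide as that of *LOX4* (-1.13 to 3.69) leaves several-fold changes undetectable.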
